A study of Mus musculus with 6 samples.

Results

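Ferritin and iron handling genes were followed in cultured mouse cells labelled bone marrow mesenchymal stromal cells (BMSCs) with and without all-trans retinoic acid (RA, labelled ATRA), the active form of vitamin A. The group holds 10 of the 25722 genes with a row in the count files, and each member was found by its gene symbol: the ferritin chains Fth1 and Ftl1, the ferritin adaptor Ncoa4, the carrier transferrin (Trf), the transferrin receptor Tfrc, the iron transporters Slc11a2 and Slc11a1, the iron exporter ferroportin (Slc40a1), ceruloplasmin (Cp) and heme oxygenase 1 (Hmox1). Fth1 was chosen by its measured level, being among the most counted genes, so that level is given as a description and was not tested. All 10 genes passed the filter on low counts.

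RNA sequencing was performed on 6 libraries of cells labelled BMSCs from C57BL/6 mice, 3 of cells given the solvent DMSO (control) and 3 of cells given RA. Per the labels, RA was used at 1 µM and both groups were treated for 48 h, although the study's methods give a lower concentration and a shorter time. Both groups shared the same culture, low-glucose medium with 10 µM of a ROCK inhibitor, fetal bovine serum at 20% and antibiotics (penicillin-streptomycin) at 2%, kept at 5% CO2 and 5% O2. The labels speak of fewer biological replicates than the 3 libraries per group, and do not say whether the 3 came from separate cultures or mice. The study describes its data in general as coming from 3 independent experiments without saying that this covers the sequencing, so p-values may measure only the spread between these libraries.

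Iron is toxic when free, so cells store it in ferritin, a hollow shell built of heavy (Fth1) and light (Ftl1) chains. Iron enters bound to transferrin through the transferrin receptor, crosses the endosome through Slc11a2, and leaves through ferroportin, with ceruloplasmin oxidising it on the way out. Much of this control acts on the messenger RNA: when iron is scarce, iron regulatory proteins bind a hairpin, the iron-responsive element, which blocks translation from the 5′ UTR of ferritin and ferroportin messages and protects the transferrin receptor message from decay when it lies in the 3′ UTR. RNA-seq counts measure the message and not its translation.

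The hairpins are shown because they are the sequence feature that joins storage, export and uptake genes. GENCODE mouse transcripts (GRCm38) were searched for the loop CAGTGN flanked on either side by 5 bases that pair with each other as a stem, with G-T pairs allowed, and with a C just upstream of the stem. A match was found in 4 of the 10 genes, and in 294 of 21877 protein-coding gene names (1.34%). The sites below are 30 bases long and are written 5′ to 3′ on the transcript strand, with the 6-base loop in capitals.
Fth1, 5′ UTR, chr19:9982732-9982761, plus strand: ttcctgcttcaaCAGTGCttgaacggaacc
Ftl1, 5′ UTR, chr7:45459778-45459807, minus strand: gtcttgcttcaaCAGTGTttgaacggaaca
Slc40a1, 5′ UTR, chr1:45925464-45925493, minus strand: caacttcagctaCAGTGTtagctaagtttg
Tfrc, 3′ UTR, chr16:32631219-32631248, plus strand: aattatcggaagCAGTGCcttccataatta
Tfrc, 3′ UTR, chr16:32631598-32631627, plus strand: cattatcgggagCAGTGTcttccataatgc
Tfrc, 3′ UTR, chr16:32631663-32631692, plus strand: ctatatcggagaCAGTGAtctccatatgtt
Tfrc, 3′ UTR, chr16:32631710-32631739, plus strand: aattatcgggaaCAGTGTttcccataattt
Each of the storage and export genes with a match carried it in the 5′ UTR, and the uptake gene Tfrc carried 4 matches in the 3′ UTR. In the other 6 genes no stretch met this rule, which says only that these letters in this arrangement are not in the transcripts searched.

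Libraries held 14737636 to 18511905 counts. They also split in a way that the groups do not explain. In a principal component analysis of the 1000 genes with the largest variance, the first component held 57.2% of it and placed control 2, RA 1 and RA 2 on one side (library set 1) and control 1, control 3 and RA 3 on the other (library set 2). The sets are not a labelled batch, and Slc40a1 and Trf are among the 1000 genes that defined them. Fits adjusted for library set treat as known a split that was read from these same counts. Their intervals may therefore be too narrow and their p-values too small. Values within a set are given beside the pooled ones, but set 1 holds 1 control and set 2 holds 1 RA library, and differences between the sets are descriptions with no test.

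The labelled cell type was checked against marker lists. All 16 macrophage markers passed the filter, at a summed level of 20303.0 to 22486.0 CPM (counts brought to a common library size and scaled by TMM, the trimmed mean of M-values) across control libraries and 20815.2 to 21404.8 across RA libraries. Among them were Adgre1, which encodes the macrophage surface protein F4/80, at 4462.8 to 6379.0 CPM and lysozyme (Lyz2) at 5542.8 to 9778.9 CPM. Of 12 mesenchymal stromal cell markers 10 passed, with a summed level of 2305.6 to 4434.5 CPM in control and 1687.8 to 3458.4 CPM in RA libraries. Of the defining markers, Thy1 and Nt5e were below the filter, while Eng passed at 33.1 to 59.8 CPM. Among the other stromal markers were Col1a1 at 414.3 to 1647.8 CPM and Cxcl12 at 368.1 to 577.9 CPM. Macrophage markers thus went against the label in all 6 libraries, since their summed CPM (not divided by length) was above that of the stromal markers in each, and BMSC is used here as the name the labels give. Between the sets, 11 macrophage markers were higher in every library of set 2 and 3 in every library of set 1. In every library of set 1, 5 stromal markers were higher, among them Nt5e, which was below the filter. Of all genes tested, 24.4% were higher in every library of set 2 and 23.4% in every library of set 1. Erythroid markers, which matter here because red cell precursors are rich in iron genes, summed to 0.50 to 0.745 CPM in set 1 and 5.05 to 7.42 CPM in set 2. Of the 10 listed 7 had a row and 2 passed the filter, Hbb-bt at 1.93 to 2.17 CPM and Epor at 2.80 to 4.76 CPM in set 2. The other erythroid rows held at most 4 counts in any library, so the sum rests on these 2 genes. Neutrophil markers, of which 6 of 9 had a row and 4 passed, summed to 4.16 to 6.84 CPM over all libraries. The part of other cell types in the results was not tested, and in bulk RNA fewer cells of a type and less RNA per cell cannot be told apart.

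Ferritin messages were among the most abundant in these cells, and their summed share of the counts was nearly constant while the balance between the chains was not. Fth1 and Ftl1 together took between 1.74% and 1.83% of the counts of each library. The order of the 10 genes by mean level over the 6 libraries, per kilobase of principal transcript, was Ftl1 at 8051.9 ± 1163.3 CPM per kb (SD, n = 6), Fth1 at 6768.4 ± 435.9, Hmox1 at 609.9 ± 148.3, Slc11a1 at 179.4 ± 13.9, Slc11a2 at 60.8 ± 17.3, Ncoa4 at 50.0 ± 20.0, Tfrc at 36.9 ± 6.37, Slc40a1 at 26.5 ± 13.8, Cp at 25.2 ± 10.0 and Trf at 24.5 ± 19.7 CPM per kb. On this scale the levels of Hmox1 did not overlap those of Fth1 above it or of Slc11a1 below it in any library, and Slc11a1 did not overlap Slc11a2. The ranges of the ferritin chains overlapped each other, and from Slc11a2 down each gene overlapped the next, so the order of those 6 is not set apart by their spread. The order depends on the transcript length used. With the shortest principal transcript (387 bases for Slc11a2 and 484 for Cp) Slc11a2 stood at 443.3 to 933.3 CPM per kb, overlapping Hmox1 at 449.2 to 783.2, and Cp at 104.8 to 377.2, overlapping Slc11a1 at 201.2 to 238.8 CPM per kb. With all annotated exons joined, the first 5 genes kept their order.

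RA left no member past the threshold used for all genes, which asked for a change of 1.5-fold or more and an adjusted p under 0.05 in edgeR's quasi-likelihood test with Benjamini-Hochberg adjustment over 13842 genes. The count was 0 of 10 members, where 0.0433% of all genes tested (6 genes) passed. At an unadjusted p under 0.05 the count was again 0 of 10, against 5.25% of all genes, and DESeq2 without a covariate also called 0 members where it called 0.983% of all genes. Fitted changes were positive for 7 members and negative for 3, where they were positive for 6549 and negative for 7293 of all genes tested. The median log2 fold change was 0.124 beside -0.018 over all genes tested. After adjustment for library set (as a covariate), edgeR's adjusted test again called 0 members, against 1.54% of all genes, and 4 members had an unadjusted p under 0.05, all higher after RA (Slc40a1, Cp, Ncoa4 and Trf), against 6.70% of all genes in that direction and 0 members against 8.44% in the lower direction.

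**Figure D1:**
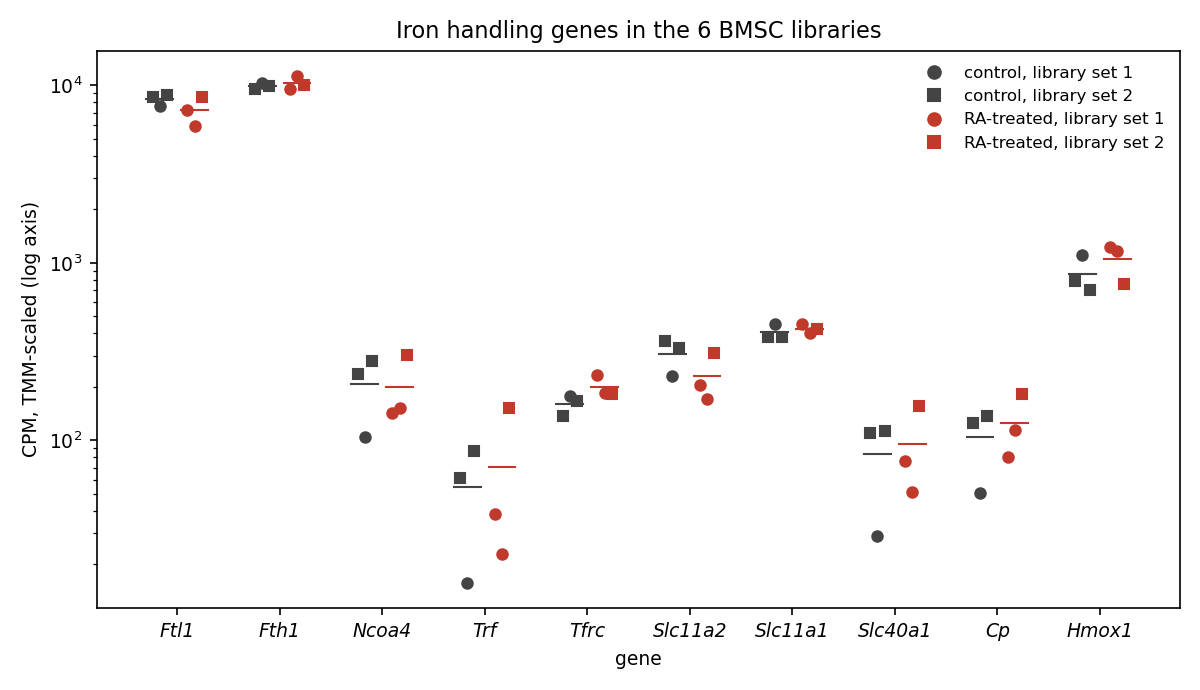
Level of each gene (CPM, TMM-scaled, log axis) in the 3 control libraries (grey) and the 3 RA-treated libraries (red), with circles for library set 1, squares for set 2 and a short line at each group mean. Fth1 lay between 9519.2 and 11263.2 CPM in all 6 libraries, while Trf ranged from 15.8 to 151.8 CPM, with the squares above the circles. CPM is not divided by transcript length, so heights compare libraries of a gene and not different genes.

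Fth1 (ENSMUSG00000024661, chr19:9980598-9985098, plus strand), whose heavy chain carries the ferroxidase activity of ferritin, stood at 9519.2, 10359.8 and 9928.7 CPM in control 1, 2 and 3 and at 9522.7, 11263.2 and 10078.4 CPM in RA 1, 2 and 3. Its groups overlapped, with RA 2 highest and control 1 lowest. By raw count it ranked first in control 2, RA 1 and RA 2 and second in the other three libraries, where the carboxylate transporter gene Slc13a3 ranked first. The log2 fold change after RA was 0.05 (SE 0.16, 95% interval -0.33 to 0.43, edgeR adjusted p = 0.943). It was -0.02 without RA 2.

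Ftl1 (ENSMUSG00000050708, chr7:45457944-45459884, minus strand), whose light chain favours the building of the iron core, stood at 8531.3, 7666.5 and 8843.6 CPM in control 1, 2 and 3 and at 7261.3, 5860.0 and 8602.8 CPM in RA 1, 2 and 3. The groups overlapped because RA 3 was as high as the controls of its own set, and every library of set 2 was above every library of set 1. The mean was 8347.1 ± 609.8 CPM in control and 7241.4 ± 1371.5 CPM in RA (SD, n = 3), a log2 fold change of -0.21 (SE 0.19, 95% interval -0.67 to 0.26, edgeR adjusted p = 0.81). It was -0.12 after adjustment for library set, -0.07 without RA 2 and -0.35 without RA 3.

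Ferritin shells differ in their content of heavy and light chain protein, which counts do not measure. The ratio of heavy to light chain message was compared per kilobase, using 1494 bases for Fth1 and 968 for Ftl1. It was 0.723, 0.876 and 0.727 in control 1, 2 and 3 and 0.850, 1.25 and 0.759 in RA 1, 2 and 3. RA 2 was the only library with more heavy than light chain message on this scale, and the groups overlapped. The mean was 0.775 ± 0.0868 in control and 0.951 ± 0.259 in RA (SD, n = 3; two-sided exact permutation test, p = 0.3, where 0.1 is the smallest possible p). Which chain is the more abundant depends on the transcript length used: with the shortest principal transcript (929 bases for Fth1) the ratio was 1.16 to 2.00 over the libraries, and with all annotated exons joined (3469 and 1340 bases) it was 0.431 to 0.742. A change of length scales all 6 ratios alike and leaves their order.

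Near-identical copies of the ferritin genes can share reads with them, and how reads with several matches were counted is not given in the sources used here. Ftl1-ps1 held 329, 609 and 356 counts in control 1, 2 and 3 and 633, 89 and 493 in RA 1, 2 and 3, far below the 92421 or more counts of Ftl1, with its lowest value in RA 2, which also had the lowest Ftl1. Its log2 fold change was -0.10 (edgeR adjusted p = 0.971). The processed pseudogenes Ftl2-ps, Fth-ps2 and Ftl1-ps2 held at most 15, 2 and 1 counts in any library.

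Ncoa4 (ENSMUSG00000056234, chr14:32159865-32179855, plus strand) hands ferritin to the autophagosome, which releases its iron. Its level was 237.6, 104.9 and 279.9 CPM in control 1, 2 and 3 and 142.5, 151.6 and 302.4 CPM in RA 1, 2 and 3. Control 2 was lowest and RA 3 highest, the groups overlapped, and every library of set 2 was above every library of set 1, with a mean 2.05 times as high. The pooled log2 fold change was -0.06 (SE 0.43, edgeR adjusted p = 0.977) and turned to 0.35 after adjustment for library set (SE 0.10, 95% interval 0.11 to 0.60, edgeR adjusted p = 0.181). Within sets the RA libraries were above their controls by 0.49 (set 1) and 0.23 (set 2) on the log2 scale.

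On the uptake side, Tfrc (ENSMUSG00000022797, chr16:32608920-32632794, plus strand), the receptor for iron-loaded transferrin, was 136.6, 177.8 and 166.7 CPM in control 1, 2 and 3 and 232.5, 185.5 and 182.6 CPM in RA 1, 2 and 3. All 3 RA libraries were above all 3 controls, the narrowest gap being that between control 2 and RA 3. Tfrc was the only member of the 10 whose groups did not overlap, and 12.6% of all genes tested did not overlap (5.71% with RA higher and 6.87% with RA lower). Its mean was 160.4 ± 21.4 CPM in control and 200.2 ± 28.0 CPM in RA (SD, n = 3), a log2 fold change of 0.32 (SE 0.16, 95% interval -0.05 to 0.69, edgeR unadjusted p = 0.0828, adjusted p = 0.795). The fold change was 0.25 after adjustment for library set (edgeR adjusted p = 0.368), and 0.22 within set 1 and 0.28 within set 2.

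Slc11a2 (ENSMUSG00000023030, chr15:100387898-100425072, minus strand), also known as DMT1, moves ferrous iron out of the endosome. It was 361.2, 231.1 and 329.8 CPM in control 1, 2 and 3 and 204.4, 171.6 and 311.4 CPM in RA 1, 2 and 3. The groups overlapped, set 2 was above set 1 in every library, and Slc11a2 was the only member below its own controls in both sets, against 23.5% of all genes tested. Its log2 fold change was -0.42 (SE 0.27, 95% interval -1.07 to 0.22, edgeR adjusted p = 0.795), and -0.22 after adjustment for library set (SE 0.10, edgeR adjusted p = 0.333). Without RA 3 it was -0.71 and without RA 2 it was -0.25.

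Slc11a1 (ENSMUSG00000026177, chr1:74375195-74386062, plus strand), or NRAMP1, is the phagosomal metal transporter of macrophages. Its level hardly varied, at 382.0, 451.8 and 380.9 CPM in control 1, 2 and 3 and 452.1, 403.6 and 421.5 CPM in RA 1, 2 and 3, with overlapping groups and sets. The log2 fold change was 0.07 (SE 0.13, 95% interval -0.23 to 0.38, edgeR adjusted p = 0.893), and ran from 0.03 without control 1 or control 3 to 0.17 without control 2.

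Trf (ENSMUSG00000032554, chr9:103204001-103230444, minus strand), the iron carrier of plasma, had the widest spread of the 10 genes relative to its mean, with 61.6, 15.8 and 86.6 CPM in control 1, 2 and 3 and 38.6, 23.0 and 151.8 CPM in RA 1, 2 and 3. RA 3 was highest and control 2 lowest, and the mean of set 2 was 3.87 times that of set 1. Pooled, the log2 fold change was 0.38 with an interval from -1.60 to 2.36 (SE 0.83, edgeR adjusted p = 0.913). After adjustment for library set it was 1.00 (SE 0.21, 95% interval 0.50 to 1.5, edgeR adjusted p = 0.0757), and it was 0.91 within set 1 and 1.05 within set 2.

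On the export side, Slc40a1 (ENSMUSG00000025993, chr1:45908068-45926523, minus strand) encodes ferroportin, the only known cellular iron exporter of mammals. It was 110.1, 28.7 and 113.1 CPM in control 1, 2 and 3 and 76.6, 51.1 and 156.5 CPM in RA 1, 2 and 3. Control 2 was again lowest and RA 3 highest, and the mean of set 2 was 2.43 times that of set 1. The pooled log2 fold change was 0.17 (SE 0.59, 95% interval -1.24 to 1.59, edgeR adjusted p = 0.946). After adjustment for library set it was 0.81 (SE 0.20, 95% interval 0.34 to 1.28, edgeR adjusted p = 0.12), and it was 1.12 within set 1 and 0.49 within set 2.

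Cp (ENSMUSG00000003617, chr3:19957054-20009145, plus strand) encodes the copper ferroxidase that works beside ferroportin. Its level was 125.5, 50.7 and 136.8 CPM in control 1, 2 and 3 and 81.0, 113.9 and 182.6 CPM in RA 1, 2 and 3, with control 2 lowest, RA 3 highest and a mean in set 2 that was 1.81 times that in set 1. The pooled log2 fold change was 0.27 (SE 0.43, 95% interval -0.77 to 1.31, edgeR adjusted p = 0.879), and 0.70 after adjustment for library set (SE 0.16, 95% interval 0.32 to 1.09, edgeR adjusted p = 0.0988). Within sets it was 0.92 in set 1 and 0.48 in set 2.

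**Figure D2:**
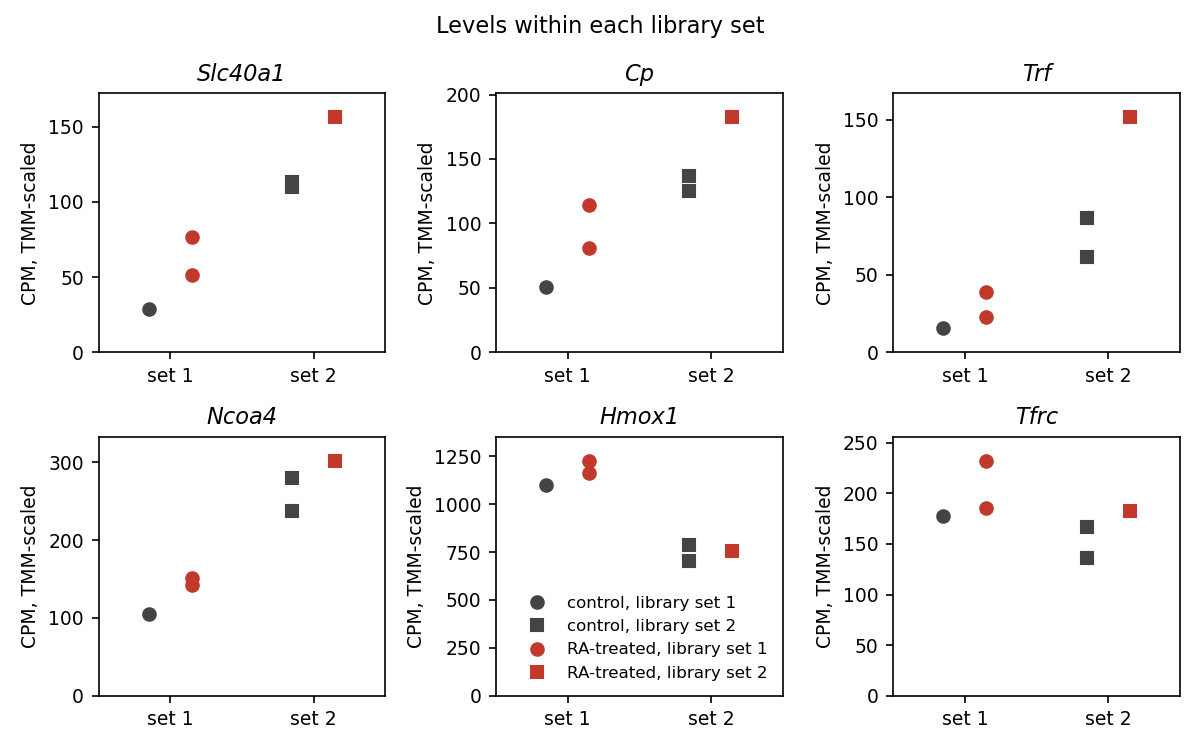
Levels (CPM, TMM-scaled, axis from 0) of 6 genes in control (grey) and RA-treated (red) libraries, drawn separately for library set 1 (circles) and set 2 (squares). For Slc40a1, Cp, Trf, Ncoa4 and Tfrc RA libraries exceeded the same-set controls in both sets, and Hmox1 was the gene whose set 1 libraries all lay above set 2.

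RA libraries exceeded the same-set controls in both sets for 5 of the 10 members (Slc40a1, Cp, Trf, Ncoa4 and Tfrc), where 18.5% of all genes tested did so, and below them for 1 member. Each of these comparisons rests on a single control in set 1 and a single RA library in set 2. With this adjustment and DESeq2 in place of edgeR, Slc40a1 (log2 fold change 0.82, DESeq2 adjusted p = 0.00174), Cp (0.71, DESeq2 adjusted p = 0.00211) and Trf (1.01, DESeq2 adjusted p = 0.000214) passed the threshold, as did 2.76% of all genes tested (1.27% in the higher direction). This fit was chosen after seeing the data, and the call depends on the tool, since edgeR with the same covariate gave an adjusted p of 0.0757 to 0.12 for these genes.

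The adjusted p of Trf, Slc40a1 and Cp in the set-adjusted edgeR fit changed with the libraries kept, while the direction did not. Leaving out control 1, 2 or 3 gave log2 fold changes of 0.89, 1.05 and 1.12 for Trf (edgeR adjusted p = 0.307, 0.409 and 0.18). For Slc40a1 they were 0.84, 0.50 and 0.86 (edgeR adjusted p = 0.372, 0.90 and 0.273), and for Cp 0.71, 0.49 and 0.76 (edgeR adjusted p = 0.362, 0.877 and 0.231). Without RA 3 they were 0.97, 1.15 and 0.94 for Trf, Slc40a1 and Cp (edgeR adjusted p = 0.289, 0.112 and 0.129). Without control 2 set 1 has no control, so the RA effect then rests on set 2 alone, as it rests on set 1 alone without RA 3. Without RA 2, edgeR with the covariate called Slc40a1 (log2 fold change 0.85, adjusted p = 0.0122) and Trf (1.12, adjusted p = 0.000815), while Cp (adjusted p = 0.0015) had a log2 fold change of 0.56, under 1.5-fold. Without RA 1 it called Slc40a1 (log2 fold change 0.65, adjusted p = 0.0407). In the pooled fit the sign itself was set by single libraries: without RA 3 the log2 fold change was -0.39 for Slc40a1, -0.10 for Cp and -0.82 for Trf, and without control 2 it was -0.22, -0.05 and -0.05.

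Between the sets, 6 members were higher in every library of set 2 (Ftl1, Ncoa4, Trf, Slc11a2, Slc40a1 and Cp), where 24.4% of all genes tested were, and 1 was higher in every library of set 1 (Hmox1), where 23.4% were. Of the 16 macrophage markers, 11 were also higher throughout set 2, while Lyz2, Fcgr1 and Msr1 were higher throughout set 1, with means 1.52, 1.54 and 4.33 times those of set 2. The summed macrophage level overlapped between the sets, at 20815.2 to 22040.9 CPM in set 1 and 20303.0 to 22486.0 CPM in set 2. Of the marker genes, edgeR adjusted for library set called the stromal Lepr (log2 fold change 3.58, adjusted p = 0.00644) and Ly6a (-0.91, adjusted p = 0.0152), where 1.54% of all genes tested were called. Within both sets RA libraries were above their controls for Lepr, Pdgfra and Cxcl12 and below them for Ly6a, Col1a1, Col1a2 and Col3a1, as 18.5% and 23.5% of all genes were. The part of cell makeup in the iron genes was not tested. As a description over 6 libraries that share this split, the Pearson correlation of log2 CPM with Slc40a1 was 0.969 for Trf, 0.941 for Ncoa4, 0.893 for Cp and -0.75 for Hmox1.

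Hmox1 (ENSMUSG00000005413, chr8:75093621-75100589, plus strand) opens the heme ring and frees its iron. It was 785.0, 1100.6 and 704.8 CPM in control 1, 2 and 3 and 1228.9, 1164.9 and 757.7 CPM in RA 1, 2 and 3. The groups overlapped, and the 3 libraries of set 1 were all above those of set 2, with a mean 1.55 times as high. The pooled log2 fold change was 0.28 (SE 0.25, 95% interval -0.32 to 0.89, edgeR adjusted p = 0.807), and 0.07 after adjustment for library set (SE 0.08, edgeR adjusted p = 0.68). Within sets the difference was 0.12 in set 1 and 0.03 in set 2. Pooled, it was 0.51 without control 2 and 0.47 without RA 3, and 0.15 without control 3 and 0.18 without RA 1.

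**Figure D3:**
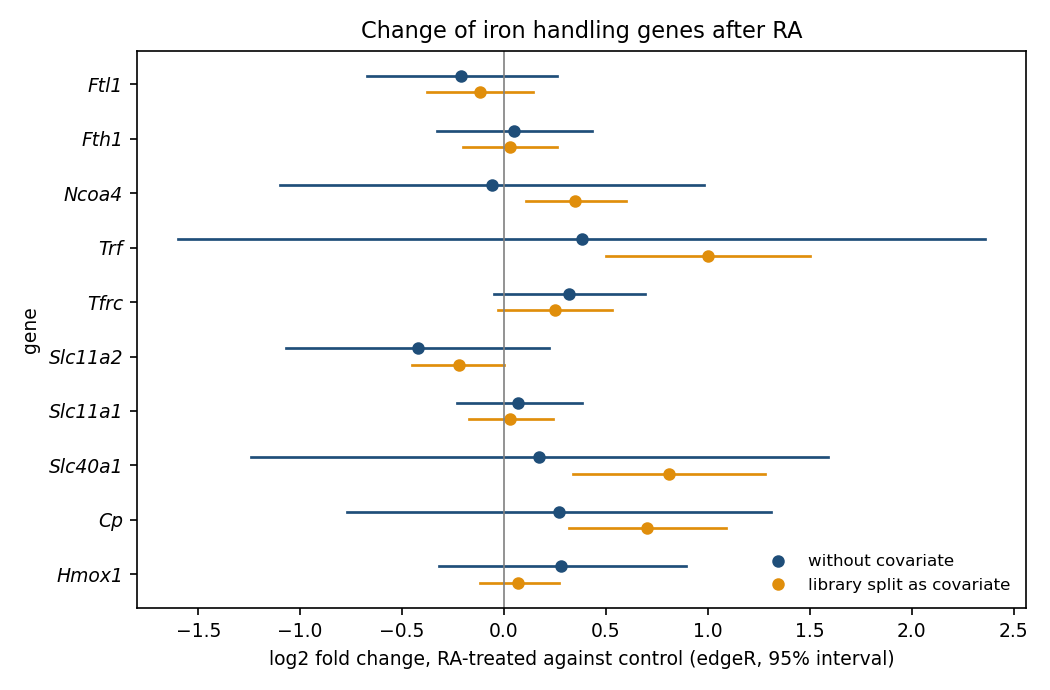
Log2 fold change of RA-treated against control libraries (n = 3 per group) for the 10 genes, with the 95% interval from edgeR, without a covariate (blue) and after adjustment for library set (orange). Every blue interval includes 0, and the orange intervals of Slc40a1, Cp, Ncoa4 and Trf do not, although their adjusted p stayed above 0.05 (0.0757 for Trf). The sets were read from these same counts, so the orange intervals may be too narrow.

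Ferritin chains and Hmox1 are textbook targets of the stress factor NRF2, so its other targets were read beside them. Of 12 listed targets 12 were tested and 0 were called or had an unadjusted p under 0.05, where 0.0433% and 5.25% of all genes tested did. Fitted changes were positive for 9 and negative for 3, where 6549 of all 13842 genes tested were positive. The median log2 fold change was 0.127 beside -0.018 over all genes. After adjustment for library set 2 targets, the quinone reductase Nqo1 and the exporter Abcc1, had an unadjusted p under 0.05, both in the lower direction, where 8.44% of all genes tested were. Of the 12 targets, 10 were higher in every library of set 1, as Hmox1 and 23.4% of all genes tested were, while Osgin1 and Ftl1 were higher in every library of set 2 and Prdx1 and Fth1 overlapped.

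The pathway around the members was read from a list of 70 genes of iron and heme handling, of which 67 had a row and 60 passed the filter. None of the 60 was called by edgeR, and at an unadjusted p under 0.05 there were 2 higher and 1 lower, where 2.89% and 2.36% of all genes tested were. After adjustment for library set edgeR again called 0, and at an unadjusted p under 0.05 there were 6 higher and 5 lower, against 6.70% and 8.44% of all genes. Apart from the members, these were 2 higher (Tfr2 and Fbxl5) and 5 lower (Slc22a17, Lrp1, Hp, Slc39a14 and Fdx1l) of 50, with a median log2 fold change of -0.047. The median log2 fold change was 0.044 over the list and 0.024 over its 50 tested genes that are not members, beside -0.018 over all genes. Outside the members, the groups did not overlap for 3 genes that were higher (Tfr2, Fbxl5 and the heme synthesis gene Urod) and 4 that were lower (Steap3, Slc22a17, Pcbp1 and Glrx5) of the 50, where 5.71% and 6.87% of all genes tested did not overlap in those directions. They are described because the naming rule takes them, and their number is close to that share.

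Tfr2, the second transferrin receptor, was a low message at 0.28, 0.691 and 0.481 CPM in control 1, 2 and 3 and 1.78, 1.27 and 1.64 CPM in RA 1, 2 and 3. Every RA library was above every control, with a log2 fold change of 1.65 (SE 0.39, edgeR unadjusted p = 0.00414, adjusted p = 0.426). Fbxl5, the iron-sensing subunit of the ligase that degrades iron regulatory protein 2, was 39.2, 40.8 and 41.2 CPM in control and 55.0, 58.7 and 48.1 CPM in RA libraries. It too did not overlap, with a log2 fold change of 0.42 (SE 0.12, edgeR unadjusted p = 0.0102, adjusted p = 0.66).

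Slc22a17, a receptor for the siderophore carrier lipocalin 2, went the other way, from 8.12, 7.45 and 7.56 CPM in control 1, 2 and 3 to 3.67, 2.35 and 4.16 CPM in RA 1, 2 and 3. The log2 fold change was -1.18 (SE 0.25, edgeR unadjusted p = 0.00254, adjusted p = 0.355), and the same gene passed the threshold in DESeq2 (adjusted p = 0.00842), the only one of the 60 to do so without a covariate. The iron chaperone Pcbp1, at 246.2 to 268.3 CPM in control and 202.5 to 241.9 CPM in RA libraries, and the mitochondrial glutaredoxin Glrx5, at 34.8 to 39.8 and 17.1 to 34.5 CPM, had fitted log2 fold changes of -0.21 and -0.44. Urod (0.11) and the ferrireductase gene Steap3 (-0.10) differed less.

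**Figure D4:**
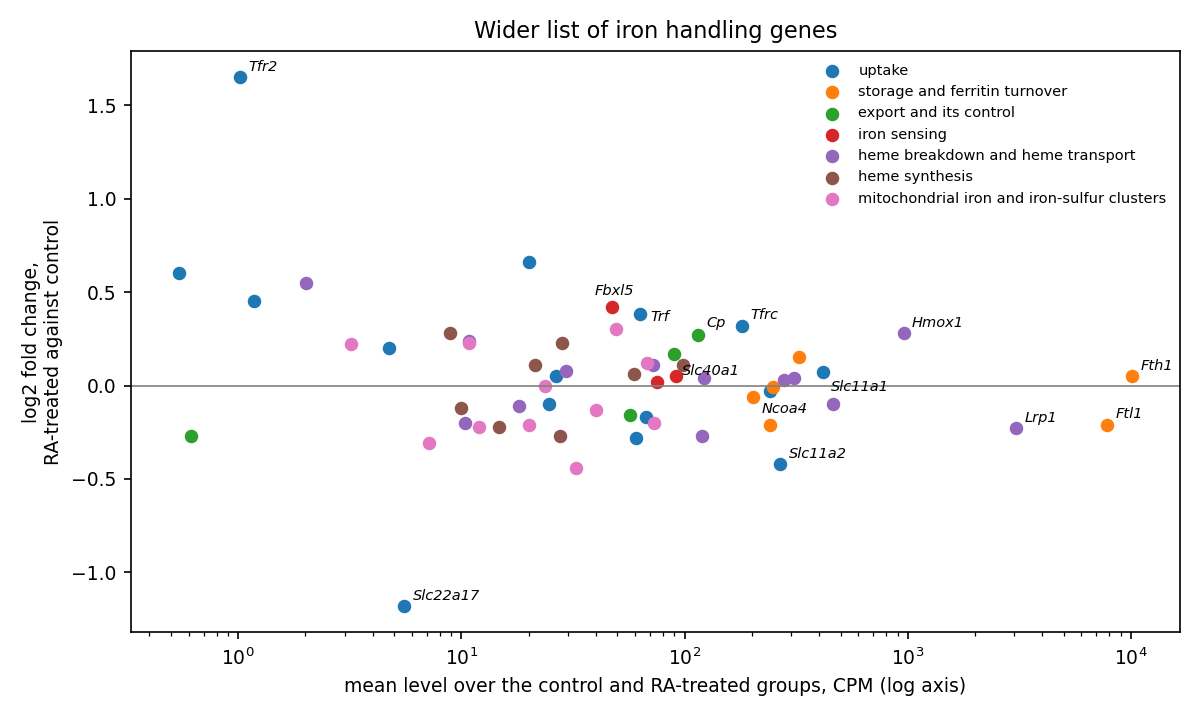
Log2 fold change of RA-treated against control libraries (edgeR) for the 60 tested genes of iron and heme handling against their mean level in CPM (log axis), coloured by role, with the members and selected genes named. Most points lie near 0, Tfr2 (1.65) and Slc22a17 (-1.18) lie farthest from it at low levels, and Fth1 and Ftl1 stand at the right.

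By role, 9 of 15 tested uptake genes had a positive fitted change, as did 2 of 6 for storage and ferritin turnover, 2 of 4 for export and its control, 3 of 3 for iron sensing, 8 of 13 for heme breakdown and transport, 5 of 8 for heme synthesis and 5 of 11 for mitochondrial iron and iron-sulfur clusters. Over all 13842 genes tested, 6549 had a positive fitted change. With all 6 libraries edgeR called none of the listed genes, with or without the adjustment for library set. DESeq2 called Slc22a17 without it and Slc22a17, Slc40a1, Cp and Trf with it, 1 and 4 of the 60, where it called 0.983% and 2.76% of all genes tested. With the adjustment and without RA 2, edgeR also called Tfr2 (log2 fold change 1.72, adjusted p = 0.0378) and Slc22a17 (-0.96, adjusted p = 0.0102). Beside Fth1, Ftl1 and Hmox1, the genes of the list with the highest mean CPM were the endocytic receptor Lrp1, which takes up heme bound to hemopexin, at 2481.5 to 4111.0 CPM and a log2 fold change of -0.23 (edgeR adjusted p = 0.807), and the lysosomal heme transporter Slc48a1 at 394.3 to 485.6 CPM and -0.10.

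Genes whose log2 CPM followed a member most closely over the 6 libraries are given by Pearson correlation, as a description. Slc40a1 was followed by Gm527 (0.9949), Mfsd9 (0.9949) and Cmtm8 (0.9945), Hmox1 by the cell cycle gene Ccne1 (0.999), Lsm5 (0.9965) and Hist1h2ap (0.996), and Fth1 by Gm14735 (0.9917), Zcchc9 (0.9916) and Vezf1 (0.989). All 6 points share the split between the library sets.

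Promoter windows from RefSeq (GRCm38.p6, 250 bases before to 50 after the start) were matched by symbol for 6 of the 10 genes, in 11 windows. The antioxidant response element core TGACNNNGC, searched on both strands, was in 1 window, of Ncoa4, and in 12.4% of all 32851 windows. The retinoic acid response element, a direct repeat of AGGTCA with 5 bases between the copies and also searched on both strands, was in 0 of the 11 and in 0.00913% of all windows, so this search could hardly have found it, and nothing about the factors follows from it.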

How the data were processed

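The deposited files hold raw read counts per gene, 1 file per library, which the authors made from reads of 6 libraries. The submitters' processing notes name Bowtie2 2.2.3 and mm10, and the counting program, annotation and strand setting are not given in the sources used here. Counts were fitted in R 4.3.3 with edgeR 4.0.16 (TMM, filterByExpr, quasi-likelihood F test, Benjamini-Hochberg over 13842 genes tested), and with DESeq2 1.42.0 as an alternative. Only the edgeR fit without a covariate was tested on simulated counts, which held no library split. The fits adjusted for library set and the DESeq2 fits were not tested in this way. Symbols and coordinates come from GENCODE M21, which held 25706 of the 25722 gene identifiers. Levels per kilobase use the longest principal protein-coding transcript, a length chosen after seeing the data. The members, the gene and marker lists and the library set covariate were chosen with earlier results of these data known. Named in the text are the 10 members, rows that begin with Fth or Ftl, listed genes that were called, had an unadjusted p under 0.05 or did not overlap, the 5 listed genes with the highest mean level, the 3 genes most like Fth1, Slc40a1 and Hmox1, and marker genes where a list is described. Nqo1, Abcc1, Osgin1, Prdx1, Hp, Slc39a14 and Fdx1l were named after their values were seen. Of the 70 listed iron genes, Ftmt, Hamp and Hjv had no row. Fdx2 was matched as Fdx1l. A floor of 3 counts equals 0.159 to 0.21 CPM after TMM scaling, and covers counting error only. Replicates of a group differed beyond sampling noise (chi-square per degree of freedom 4.81 to 91.7), so none was counted as a duplicate.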

Additional observations from a re-analysis of the deposited data

How the results depend on the processing

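By edgeR's quasi-likelihood test 6 genes passed the threshold (5 higher, 1 lower), and 0 of the 10 iron handling genes. The number was 20 (17 and 3) with no filter beyond 1 count in any library, 213 (103 and 110) after adjustment for library set, 136 (98 and 38) in DESeq2 and 491 (295 and 196) at 1.5-fold or more with an unadjusted p under 0.05. Leaving out 1 library in turn gave 0 to 6 genes, 0 to 6 higher and 0 lower. Without control 1 the number was 0, without control 3, RA 1 or RA 2 it was 1, without control 2 it was 2, and without RA 3 it was 6. Scaling by library size alone gave 0 lower genes. Replicate numbers are shared by the groups, and the labels do not say what a number shares. Deviations of same-numbered libraries correlated at -0.51, 0.343 and 0.572 for numbers 1, 2 and 3. Control 1 and RA 1 lie in different library sets, while the libraries numbered 2 share a set, as do those numbered 3. These correlations therefore cannot tell whether the numbers pair the libraries. The fit with the replicate block called 4 genes, 0 of them lower, and 0 members. In fits chosen after seeing the data, adjusted for library set, the number without control 1, 2 and 3 was 36 (21 higher and 15 lower), 55 (39 and 16) and 50 (31 and 19), without RA 1, 2 and 3 it was 192 (91 and 101), 420 (197 and 223) and 62 (33 and 29), and in DESeq2 it was 382 (176 and 206). Members called were then 0 to 2 with 1 library left out (1 without RA 1, 2 without RA 2) and 3 in DESeq2, and genes of the iron list 0 to 4 and 4, beside 1 in DESeq2 without the covariate. Of the members, Ftl1, Hmox1, Tfrc and Slc11a2 kept their direction under every alternative. With the covariate and without control 2, however, the log2 fold change was near 0, at -0.0024 for Ftl1 and 0.04 for Hmox1. A member was called only in fits added after seeing the data. The log2 fold change with 1 library left out ran from -0.02 to 0.13 for Fth1, -0.39 to 0.47 for Slc40a1, -0.10 to 0.53 for Cp, -0.50 to 0.21 for Ncoa4 and -0.82 to 0.88 for Trf. With the covariate and 1 library left out it ran from -0.02 to 0.10 for Fth1, -0.08 to 0.16 for Slc11a1 and 0.24 to 0.49 for Ncoa4 (0.32, 0.24 and 0.43 without control 1, 2 and 3 and 0.38, 0.32 and 0.49 without RA 1, 2 and 3), and Ncoa4 stood at 0.35 with the covariate in edgeR and 0.36 in DESeq2. The mean ratio of Fth1 to Ftl1 per length over the 6 libraries was 0.515 with joined exons and 1.39 with the shortest principal transcript, lengths chosen after seeing the data. The cause of these changes was not tested. In the fit without the adjustment the intervals of Trf, Slc40a1, Cp and Ncoa4 include both 0 and the differences seen within sets.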
